A study of Homo sapiens with 7 samples.

Results

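The 4 genes for interferon-induced proteins with tetratricopeptide repeats (IFIT1, IFIT2, IFIT3 and IFIT5) and the 3 genes for interferon-induced transmembrane proteins (IFITM1, IFITM2 and IFITM3) were followed in HEK-293 cells kept in acidified medium or treated with a splicing kinase inhibitor. They were chosen by name, as 7 of the 19978 genes of the deposited table, and all 7 were among the 14863 genes with enough counts to be tested. HEK-293 is an established line of human embryonic kidney cells. Poly(A)-selected RNA was sequenced from 7 samples, each after 48 h of incubation. The control group (2 samples) was kept in DMEM of pH 7.4 with the solvent DMSO, and the acidosis group (3 samples) in DMEM of pH 6.6 with DMSO. The SRPIN340 group (2 samples) received 10 µM SRPIN340 in DMSO at pH 7.4. DMSO was thus present in every group, and no group combined acidified medium with the inhibitor. SRPIN340 inhibits the kinases SRPK1 and SRPK2, which phosphorylate the serine/arginine-rich splicing factors. All samples came from a single cell line with no added interferon named in the protocols, and the samples of a group were described as biological repeats.

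Type I interferons bind a receptor that activates the kinases JAK1 and TYK2. These switch on the factor ISGF3, which holds STAT2 and IRF9 and binds interferon-stimulated response elements in promoters, among them those of the IFIT and IFITM genes. The IFIT proteins act in the cytoplasm. IFIT1 binds viral RNA whose cap lacks ribose methylation and blocks its translation, IFIT3 stabilises IFIT1 and IFIT2 in complexes, IFIT2 has been linked to apoptosis, and IFIT5 binds RNA with a triphosphate end. The IFITM proteins sit in membranes and hinder the fusion of enveloped viruses with the cell. IFITM1 acts mainly at the plasma membrane, and IFITM2 and IFITM3 act mainly in endosomes.

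The members lie in a cluster for each family. On GRCh38, GENCODE release 44 places IFIT2 (ENSG00000119922.11) at chr10:89283694-89309271, IFIT3 (ENSG00000119917.15) at chr10:89327307-89377473, IFIT1 (ENSG00000185745.10) at chr10:89392546-89406487 and IFIT5 (ENSG00000152778.10) at chr10:89414568-89421605, all on the plus strand. On chromosome 11 lie IFITM2 (ENSG00000185201.18) at chr11:303655-309397 and IFITM1 (ENSG00000185885.17) at chr11:310041-315272 on the plus strand, and IFITM3 (ENSG00000142089.17) at chr11:319676-329475 on the minus strand. The canonical transcript of every member has 2 exons. The IFIT transcripts are 2390 to 4302 nt long and the IFITM transcripts 611 to 1006 nt.

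The core letters of an interferon-stimulated response element were searched in the promoter windows of RefSeq (GRCh38.p14), which run from 250 bases before to 50 bases after a transcription start. The motif was GAAA, any 2 bases and GAAA again, on both strands, so that on the other strand it reads TTTC, any 2 bases and TTTC. All 5 members with a window (IFIT1, IFIT3, IFIT5, IFITM1 and IFITM3) held it, in 6 windows with at least 2 matches each. Of all 35116 windows, 3.57% held the motif and 0.259% held it at least 2 times. IFIT2 and IFITM2 had no window. The stretches that hold the matches upstream of the start are printed because they are the element through which interferon signaling is known to reach these genes. They read 5′ to 3′ on the strand of the gene, and capitals mark the matches.
IFIT1, chr10:89392499-89392537, plus strand: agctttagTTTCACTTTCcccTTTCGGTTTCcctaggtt
IFIT3, chr10:89327833-89327892, plus strand: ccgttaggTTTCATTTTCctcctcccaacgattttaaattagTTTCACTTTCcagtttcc
IFIT3 at its second start, chr10:89332427-89332495, plus strand: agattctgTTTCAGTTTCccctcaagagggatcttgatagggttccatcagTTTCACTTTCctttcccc
IFIT5, chr10:89414515-89414566, plus strand: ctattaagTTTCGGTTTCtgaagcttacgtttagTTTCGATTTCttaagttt
IFITM1, chr11:313992-314017, plus strand: aacagcagGAAATAGAAActtaagag
IFITM3, chr11:320878-320920, minus strand: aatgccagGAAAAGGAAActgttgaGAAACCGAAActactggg
In the IFIT genes the matches read TTTC first, and in the IFITM genes GAAA first. In IFIT1 the matches lay 116 to 94 bases before the start and 3 bases apart. In IFIT5 and IFITM3 they lay within 52 bases of it. IFIT5 and IFITM1 each had a further match across the start, which is not printed. A match is a run of letters, and binding was not measured here.

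The samples held 13615816 to 24110460 estimated counts, with the fewest in 2 of the acidosis samples. The top 100 genes by count took up 24.1% to 24.8% of each acidosis sample and 15.2% to 15.4% of the others. Levels are given as CPM, the share of a library's counts, after TMM scaling, which sets the typical gene equal between samples. When the libraries were scaled by their totals alone, the median of all log2 fold changes in acidosis went from -0.05 to -0.63. Each fold change in acidosis is therefore relative to the typical gene, and fewer expressing cells and less RNA per cell cannot be told apart. The markers of HEK-293 (KRT8, KRT18, VIM, PAX2 and LHX1) were all above 1 CPM in every sample. Their sum was 3258 to 3291 CPM in acidosis, most of it VIM, and 1267 to 1336 CPM at pH 7.4. KRT8 was also higher in acidosis (log2 fold change 0.57, adjusted p = 3.12e-05), while PAX2 (-1.93, adjusted p = 0.00024) and KRT18 (-0.26, adjusted p = 0.00877) were lower. Whether this shift has a part in the members' changes was not tested. Of 5 blood and immune markers, 2 were at 0 in every sample, and the sum of the 5 was at most 1.40 CPM in control, 1.18 CPM with SRPIN340 and 5.05 CPM in acidosis. Of 4 endothelial and fibroblast markers, 1 was above 1 CPM in every sample, the fibroblast marker COL1A1. It averaged 30.8 CPM in control (SD 0.0359, n = 2) and 62.3 CPM in acidosis (SD 4.08, n = 3; log2 fold change 1.02, adjusted p = 0.000104), and its part in the members' changes was not tested.

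All 7 genes were expressed in control cells, with no added interferon. Between genes, levels were compared as CPM per kb of the canonical transcript. IFITM1 had the highest level in control, at 87.8 ± 9.59 CPM per kb (SD, n = 2). It was followed by IFITM3 at 55.7, IFIT3 at 49.8 and IFIT1 at 42.3 CPM per kb, whose neighbouring ranges overlapped. IFIT5 at 21.3, IFITM2 at 13.5 and IFIT2 at 11.8 CPM per kb came last, with ranges that did not overlap. The order differed between the groups. With SRPIN340, IFITM1 stayed first at 32.0 CPM per kb and IFIT2 was last at 3.60. In acidosis, IFITM3 was first at 36.3 CPM per kb, ahead of IFITM2 at 20.1 and IFITM1 at 19.8, whose ranges overlapped. IFIT1, the fourth in control, was last in acidosis at 1.17 CPM per kb.

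**Figure D1:**
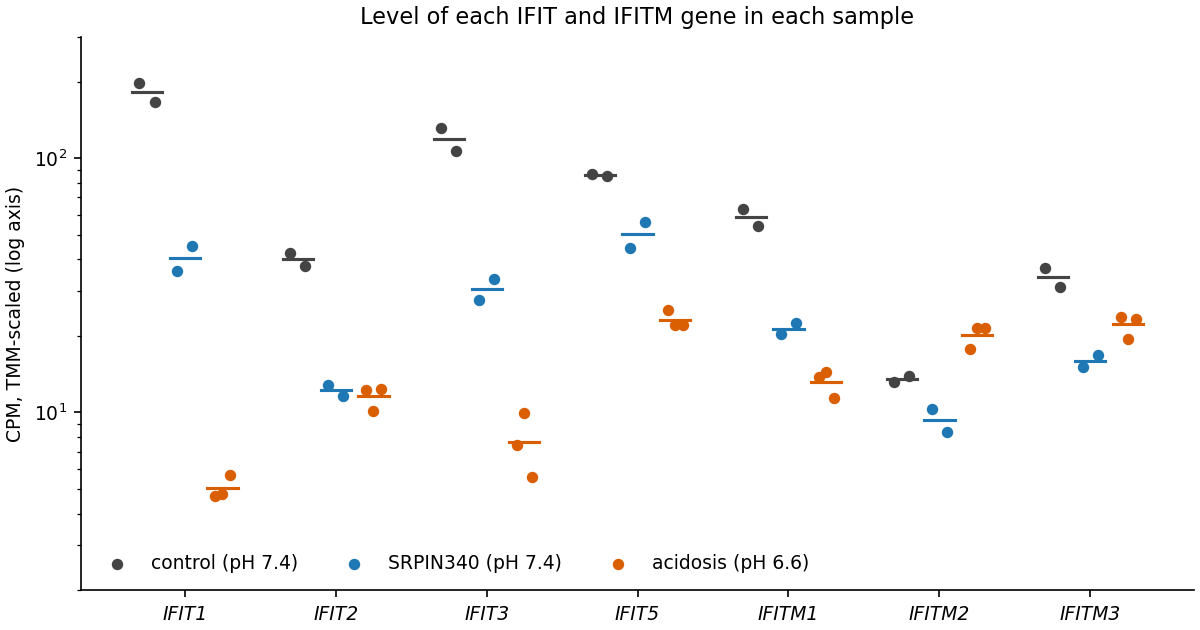
Level of each IFIT and IFITM gene in each of the 7 samples, in TMM-scaled CPM on a log axis, where points are samples and bars group means. The acidosis samples of IFIT1 lie at 4.69 to 5.67 CPM, below every other sample, and those of IFITM2 at 17.8 to 21.5 CPM, above every other sample.

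Acidosis against control asked which of the genes change after prolonged mild acidification. A gene passed at an adjusted p under 0.05 (quasi-likelihood test of edgeR, adjusted by Benjamini-Hochberg over the 14863 genes), and it was called when its log2 fold change was also over 1 in size. All 4 IFIT genes and IFITM1 were called lower, IFITM3 passed as lower with a smaller change, and IFITM2 passed as higher. So 5 of 7 members were called lower, beside 19.1% of all genes tested, and 0 of 7 were called higher, beside 14.4%. By adjusted p alone 6 of 7 members were lower, beside 34.2% of all genes, and 1 of 7 was higher, beside 32.5%.

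IFIT1 had the deepest fall of the members. It was at 198 and 166 CPM in the control samples and at 4.69, 4.77 and 5.67 CPM in acidosis. The acidosis samples rested on 51.7 to 78.9 estimated counts each, and the groups were far apart. The log2 fold change was -5.18 (SE 0.149, adjusted p = 8.31e-09), a level 36.2-fold lower. IFIT3, the partner that stabilises IFIT1, came next. It was at 132 and 106 CPM in control and at 7.42, 9.92 and 5.59 CPM in acidosis. Every acidosis sample was far below both control samples, although they varied more among themselves than for IFIT1. IFIT3 fell 15.7-fold, with a log2 fold change of -3.97 (SE 0.193, adjusted p = 1.34e-07).

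IFIT2 and IFIT5 fell less. IFIT2 was at 42.5 and 37.5 CPM in control and at 12.3, 10.1 and 12.4 CPM in acidosis, 3.44-fold lower (log2 fold change -1.78, SE 0.137, adjusted p = 2.39e-06). IFIT5, the triphosphate RNA binder, was at 86.7 and 85.1 CPM in control and at 25.4, 22.0 and 22.0 CPM in acidosis, 3.70-fold lower (log2 fold change -1.89, SE 0.121, adjusted p = 7.38e-07). In both genes the groups did not overlap and the samples of a group lay close together. The 4 IFIT genes summed to 427 CPM in control (SD 45.6, n = 2) and to 47.4 CPM in acidosis (SD 2.12, n = 3).

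The IFITM genes moved apart in acidosis. IFITM1, the plasma membrane form, was at 63.2 and 54.1 CPM in control and at 13.8, 14.4 and 11.4 CPM in acidosis. It was 4.43-fold lower (log2 fold change -2.15, SE 0.133, adjusted p = 5.77e-07), near the size seen for IFIT2 and IFIT5. IFITM3 was at 36.9 and 31.2 CPM in control and at 23.7, 19.5 and 23.4 CPM in acidosis. The groups did not overlap, but the fall was 1.53-fold, below the limit for a call (log2 fold change -0.61, 95% interval -0.92 to -0.31, adjusted p = 0.00258). With total counts only it was -1.19 (adjusted p = 2.36e-05), past the limit. IFITM2 was at 13.2 and 13.9 CPM in control and at 17.8, 21.5 and 21.4 CPM in acidosis. It alone among the members was higher, by 1.49-fold (log2 fold change 0.57, 95% interval 0.22 to 0.93, adjusted p = 0.00882). This rise depends on the scaling. With total counts only its log2 fold change was -0.000434 (adjusted p = 0.998), and without the first control sample it missed the threshold (0.53, adjusted p = 0.0622).

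SRPIN340 against control asked what the inhibitor does at normal pH. Every member had a lower mean level with SRPIN340 than in control, and the samples of the 2 groups overlapped for none of them. IFIT1, IFIT2, IFIT3, IFITM1 and IFITM3 were called lower, IFIT5 passed with a smaller fall, and IFITM2 did not pass. So 5 of 7 members were called lower, beside 0.195% of all genes tested, or 29 genes in all, and 0 of 7 were called higher, beside 0.128%. By adjusted p alone 6 of 7 were lower, beside 1.53% of all genes, and 0 of 7 were higher, beside 0.767%. No member was higher at an unadjusted p under 0.05 or by DESeq2 either.

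IFIT1 was at 36.0 and 45.3 CPM in the SRPIN340 samples, against 198 and 166 CPM in control. Its level was 4.47-fold lower (log2 fold change -2.16, SE 0.138, adjusted p = 0.000463). IFIT3 was at 27.7 and 33.5 CPM and 3.89-fold lower (log2 fold change -1.96, SE 0.191, adjusted p = 0.00225). IFIT2 followed, so that 3 of the 4 IFIT genes were more than 3-fold lower. It was at 12.9 and 11.6 CPM and 3.27-fold lower (log2 fold change -1.71, SE 0.150, adjusted p = 0.00152). IFIT5 was at 44.2 and 56.1 CPM and 1.71-fold lower (log2 fold change -0.78, SE 0.129, adjusted p = 0.0227). IFIT5 had the smallest fall of the family, and it no longer passed when any of the control or SRPIN340 samples was left out (adjusted p from 0.0606 to 0.203).

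Of the IFITM genes with SRPIN340, IFITM1 was at 20.3 and 22.5 CPM and 2.74-fold lower than in control (log2 fold change -1.46, SE 0.142, adjusted p = 0.00225). IFITM3 was at 15.1 and 16.8 CPM and 2.13-fold lower (log2 fold change -1.09, SE 0.148, adjusted p = 0.00913). By TMM-scaled CPM the endosomal IFITM3 was thus lower with SRPIN340 than in any acidosis sample, an order that depends on the scaling, since with total counts only acidosis was the lower group (acidosis against SRPIN340 -0.14, adjusted p = 0.372). IFITM2 was at 10.3 and 8.35 CPM, with a log2 fold change of -0.54 (95% interval -0.92 to -0.15, adjusted p = 0.143). The count of called members rests on the pair of SRPIN340 samples. Without the first of them 2 members were called lower, IFIT1 and IFIT2, and IFIT3, IFITM1 and IFITM3 had adjusted p of 0.0597, 0.0597 and 0.143. IFITM3 also missed the threshold without the second SRPIN340 sample (adjusted p = 0.101) or without the first control sample (adjusted p = 0.0782).

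**Figure D2:**
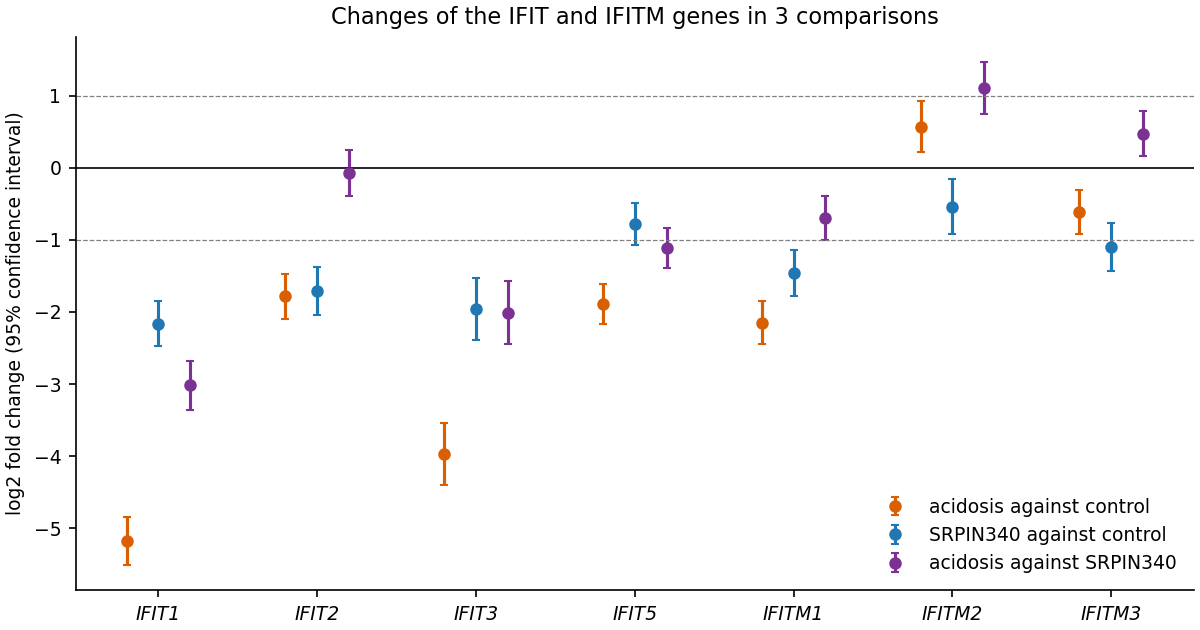
Log2 fold change of each IFIT and IFITM gene in 3 comparisons from a single edgeR fit, where points are estimates, bars 95% confidence intervals and dashed lines the fold limit of a call. IFIT1 runs from -5.18 in acidosis to -2.16 with SRPIN340, IFIT2 has nearly the same value in both, and IFITM2 lies above 0 only in acidosis and in acidosis against SRPIN340.

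Both treatments were compared with the same control samples, so their effects were set against each other by testing acidosis against SRPIN340 directly. Of the 7 members, 3 were called lower in acidosis than with SRPIN340 (IFIT1, IFIT3 and IFIT5), beside 19.7% of all genes tested, and 1 was called higher (IFITM2), beside 14.9%. By adjusted p alone 4 of 7 were lower, beside 35% of all genes, and 2 of 7 higher, beside 32.8%. IFIT1 was 8.09-fold lower in acidosis than with SRPIN340 (log2 fold change -3.02, adjusted p = 1.66e-07), IFIT3 4.02-fold (-2.01, adjusted p = 1.15e-05) and IFIT5 2.16-fold (-1.11, adjusted p = 2.67e-05). The IFIT5 call ended without the second SRPIN340 sample, where its log2 fold change was -0.93. IFITM1 was lower by less (log2 fold change -0.69, adjusted p = 0.00136), and with total counts only it was past the limit of a call (-1.30, adjusted p = 1.64e-05). For these genes the fall in acidosis was the larger.

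IFIT2 did not differ detectably between the treatments. It averaged 12.2 CPM with SRPIN340 (SD 0.909, n = 2) and 11.6 CPM in acidosis (SD 1.29, n = 3), a log2 fold change of -0.07 (95% interval -0.39 to 0.25, adjusted p = 0.673). With total counts only the difference was -0.69 (adjusted p = 0.00133). IFITM2 and IFITM3 were higher in acidosis than with SRPIN340. IFITM2 was 2.16-fold higher (log2 fold change 1.11, adjusted p = 0.00018), which with total counts only fell short of a call (0.50, adjusted p = 0.0186). It also missed the fold limit without the second SRPIN340 sample (0.96, adjusted p = 0.0044). IFITM3 was 1.39-fold higher (log2 fold change 0.48, adjusted p = 0.0127). The IFITM3 difference turned to -0.14 with total counts only (adjusted p = 0.372), and it missed the threshold without the first SRPIN340 sample (adjusted p = 0.111).

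The makeup of each family changed along with its level. Within a sample, the share of a gene in its family's summed CPM per kb does not depend on how libraries are scaled. IFIT1 made up 33.7 ± 0.454% (SD, n = 2) of the IFIT family in control, 24.6 ± 0.718% (SD, n = 2) with SRPIN340 and 8.72 ± 1.41% (SD, n = 3) in acidosis. IFIT5 went the other way, from 17.1 ± 1.71% to 32.4 ± 1.20% and 42.4 ± 2.36%. IFIT3 went from 39.7 ± 1.48% to 33.4 ± 0.0491% and 23.5 ± 6.12%. IFIT2 held 9.43 ± 0.232% in control and 9.53 ± 1.96% with SRPIN340, and 25.3 ± 3.44% in acidosis. In control IFIT3 and IFIT1 thus made up most of the family. In acidosis IFIT5 led, and IFIT2 and IFIT3 came next with overlapping samples. In the IFITM family, IFITM1 went from 55.9 ± 0.560% in control to 47.4 ± 1.43% with SRPIN340 and 26.0 ± 3.34% in acidosis. IFITM2 rose in share from 8.63 ± 1.18% to 13.8 ± 2.64% and 26.4 ± 3.07%. IFITM3 held 35.5 ± 0.617%, 38.8 ± 1.21% and 47.6 ± 4.33%, so that it was the leading IFITM transcript in acidosis in place of IFITM1.

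**Figure D3:**
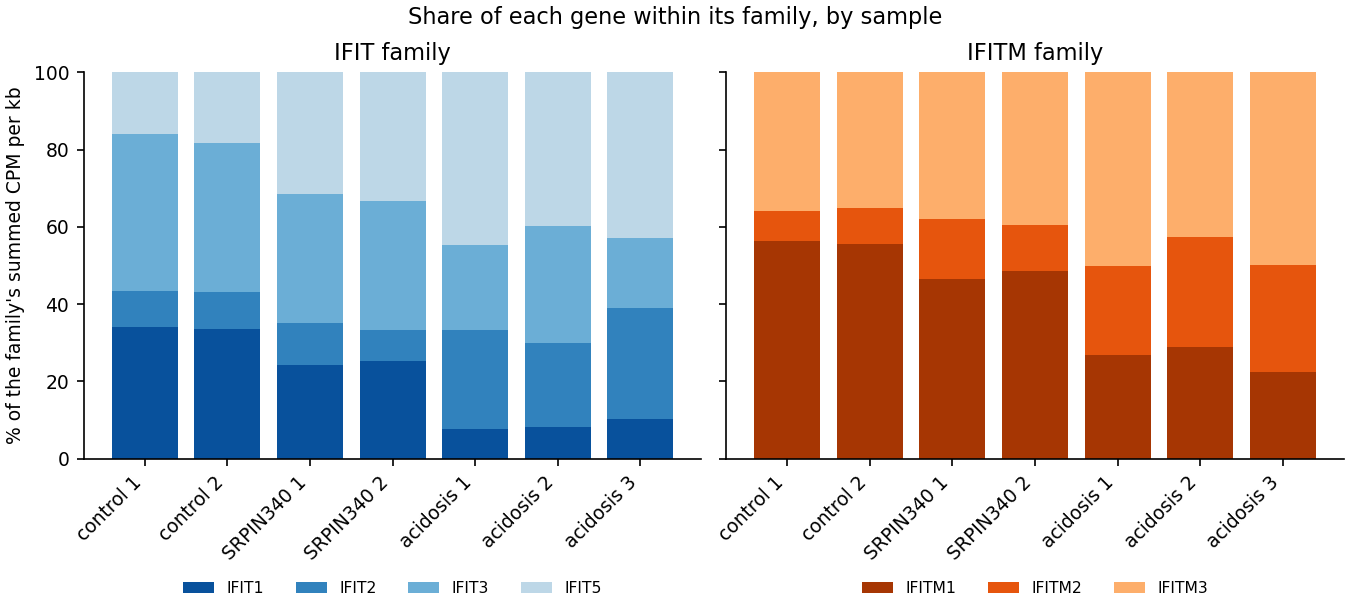
Share of each gene in the summed CPM per kb of its family, in percent, with 1 bar per sample. IFIT1 shrinks from 33.7% of the IFIT family on average in the control bars to 8.72% in acidosis, and IFITM1 from 55.9% to 26.0% of the IFITM family.

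The ratio of a pair of members within a sample shows the same shift with no scaling at all, and 4 pairs were taken after their values had been seen. The log2 ratio of IFITM2 to IFITM1 was -2.26 and -1.96 in control, -0.97 and -1.43 with SRPIN340, and 0.36, 0.57 and 0.90 in acidosis. IFITM2 had fewer counts than IFITM1 in every control and SRPIN340 sample and more in every acidosis sample. The log2 ratio of IFIT5 to IFIT1 was -1.19 and -0.96 in control, 0.29 and 0.31 with SRPIN340, and 2.44, 2.22 and 1.95 in acidosis. The mean differences between acidosis and control were 2.72 for IFITM2 to IFITM1, 1.19 for IFITM2 to IFITM3, 3.28 for IFIT5 to IFIT1 and 3.38 for IFIT2 to IFIT1. In all 4 pairs the samples of the control group overlapped neither those of acidosis nor those of SRPIN340. Two-sided exact permutation tests on these pairs gave the smallest p that the designs allow, 0.2 for acidosis and 0.333 for SRPIN340 against control, and support nothing, since the pairs were picked for these values.

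The IFITM genes are related copies that share stretches of sequence, so reads can be split between them by the quantification. Their coding sequences are 94% identical between IFITM2 and IFITM3, 87.6% between IFITM1 and IFITM3 and 85.5% between IFITM1 and IFITM2, against 61.7% to 73% between the IFIT genes. Of the 31-base words of the transcript, 28.9% in IFITM3, 21.3% in IFITM1 and 10.3% in IFITM2 also occur in another member, and at most 0.0424% do so for any IFIT gene. Over all annotated genes, 59.4% of the words in IFITM1, 46.8% in IFITM3 and 17.0% in IFITM2 occur in another gene. For any IFIT gene at most 7.58% do so. IFITM1 shares further words with ENSG00000288681, a gene model on the same strand (chr11:308408-315272) that covers IFITM1 and the last part of IFITM2. That gene model was listed at 0 in every sample. LIPA overlaps IFIT1, IFIT2 and IFIT3 on the opposite strand, and 3 antisense long non-coding RNAs overlap IFITM3. The strand setting of the counting was not given in the sources used here. With the counts of IFITM1, IFITM2 and IFITM3 summed to 1 feature, the family was lower in acidosis (log2 fold change -0.93, adjusted p = 7.83e-06) and with SRPIN340 (-1.19, adjusted p = 0.000754). How far reads were exchanged between the 3 genes was not tested.

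The rest of the interferon pathway was read from gene lists and is described by counts, beside the same counts for all genes given above. Of 10 interferon ligand genes, none had enough counts to be tested. Of 11 receptor and JAK-STAT genes, 4 passed as lower and 4 as higher in acidosis, and 1 as lower and 0 as higher with SRPIN340. The balance in acidosis depends on the scaling. Calls on this list were 2 lower and 3 higher, and 4 lower and 0 higher with total counts only. The calls over all 14863 genes tested moved in the same directions, from 2840 lower and 2145 higher to 5202 and 815. STAT2, a subunit of ISGF3, had a log2 fold change of -1.30 in acidosis (adjusted p = 1.11e-06) and of -0.41 with SRPIN340 (adjusted p = 0.0619). IRF9, the DNA-binding subunit, had values of -0.88 (adjusted p = 0.000263) and -1.13 (adjusted p = 0.00831), in that order. With SRPIN340 it no longer passed without the second control sample (adjusted p = 0.0708) or without the first (0.125) or second (0.0633) SRPIN340 sample, with a fold change of -1.01 to -1.26 over all samples left out. IFNGR2, a subunit of the interferon gamma receptor, rose in acidosis (1.29, adjusted p = 3.97e-07) and had a value of 0.000487 with SRPIN340 (adjusted p = 0.999). IRF1, another activator of interferon-stimulated genes, had log2 fold changes of -0.11 (adjusted p = 0.726) and 0.02 (adjusted p = 0.986), the first of which passed with total counts only (-0.68, adjusted p = 0.0373).

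Of 7 interferon regulatory factors, 2 passed as lower and 0 as higher in acidosis, and 1 in each direction with SRPIN340. IRF7, which amplifies interferon production, fell in both, with log2 fold changes of -1.34 in acidosis (adjusted p = 4.2e-05) and -1.76 with SRPIN340 (adjusted p = 0.0023). Without the first SRPIN340 sample the latter was -1.64 and did not pass (adjusted p = 0.0597). Of 7 feedback inhibitors, 2 passed as lower and 4 as higher in acidosis, and 2 as lower and 0 as higher with SRPIN340. SOCS3, which blocks JAK kinases, averaged 1.74 CPM in control (SD 0.421, n = 2) and rose to 11.8 CPM in acidosis (SD 2.77, n = 3; log2 fold change 2.76, adjusted p = 2.11e-05). SOCS1, of the same type, had a log2 fold change of 1.80 (adjusted p = 0.0187) at 1.31 CPM or less on average, and did not pass with total counts only (adjusted p = 0.0758) or without the first or the second control sample (adjusted p = 0.0906 and 0.115). ISG15, a ubiquitin-like modifier, fell with SRPIN340 (log2 fold change -2.23, adjusted p = 0.000463) and less in acidosis (-0.91, adjusted p = 0.000194).

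Among 11 sensing genes upstream of interferon, 7 passed as lower and 1 as higher in acidosis, and 3 as lower and 0 as higher with SRPIN340. The RNA sensors IFIH1 and RIGI fell in acidosis, with log2 fold changes of -2.73 (adjusted p = 2.48e-07) and -2.19 (adjusted p = 2.4e-07). RIGI fell also with SRPIN340 (-1.57, adjusted p = 0.000878). IFIH1 passed narrowly with SRPIN340 (-0.68, adjusted p = 0.0494), but not with total counts only (adjusted p = 0.0549) or when any of the control or SRPIN340 samples was left out (adjusted p from 0.105 to 0.339). DHX58, a regulator of these sensors, held at most 3 counts in every acidosis sample and was at least 5.92-fold lower, against a floor of 3 counts per library.

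Of 35 other interferon-stimulated effectors, 33 passed as lower, 29 of them called, and 1 passed as higher in acidosis. With SRPIN340 18 passed as lower, 12 of them called, and 0 passed as higher by edgeR or by DESeq2. The 12 became 6 without the first control sample, 3 without the first SRPIN340 sample and 6 without the second. The median log2 fold change of the effectors was -2.21 in acidosis and -0.92 with SRPIN340, beside -0.05 and 0.00243 over all genes. For the IFIT genes the medians were -2.93 and -1.83, and for the IFITM genes -0.61 and -1.09. The IFITM median alone was nearer to 0 in acidosis than with SRPIN340, and with total counts only IFITM3, which sets it, was at -1.19 and -1.05. CMPK2, a mitochondrial nucleotide kinase, had a log2 fold change of -4.38 in acidosis (adjusted p = 7.88e-06). It was at 1.54, 0.367 and 0.430 CPM there, and without the first acidosis sample the value was -5.48. SAMD9L, a translation repressor, had at most 2 counts in every acidosis sample and was at least 14.3-fold lower against the same floor. The antiviral genes MX2 and OAS2 were the effectors with the largest falls among those called with SRPIN340, with log2 fold changes of -2.72 (adjusted p = 0.00781) and -2.54 (adjusted p = 0.00424). Neither passed without the first SRPIN340 sample (adjusted p = 0.1 and 0.0747), and MX2 also missed the threshold without the second (0.11) or without the first control sample (0.0833).

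Genes whose products work with the members went in both directions in acidosis, where 34.2% of all genes passed as lower and 32.5% as higher. Of 6 cofactor genes of IFIT function (cap methylation and the translation factor eIF3), 1 passed as lower and 4 as higher in acidosis. EIF3C rose in acidosis (log2 fold change 1.12, adjusted p = 1.21e-06), with the caution that it has a near-identical copy in the genome. Of 6 enzymes and partners that modify or bind IFITM3, 3 passed as lower and 3 as higher in acidosis. SETD7, a lysine methyltransferase of IFITM3, rose (log2 fold change 1.47, adjusted p = 3.55e-07), and VAPA, which IFITM3 binds at membranes, rose as well (1.42, adjusted p = 6.97e-08). The counts above were taken under TMM scaling. With total counts only, EIF3C, SETD7 and VAPA kept their direction, at 0.54, 0.89 and 0.85, but fell below the fold limit of a call. With SRPIN340 none of these 12 genes passed edgeR's test, beside 1.53% of all genes passing as lower and 0.767% as higher. Of the 12, 4 had an unadjusted p under 0.05, and DESeq2 passed 2. The kinases that SRPIN340 inhibits had log2 fold changes with SRPIN340 of 0.16 for SRPK1 (adjusted p = 0.28) and -0.08 for SRPK2 (adjusted p = 0.663).

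**Figure D4:**
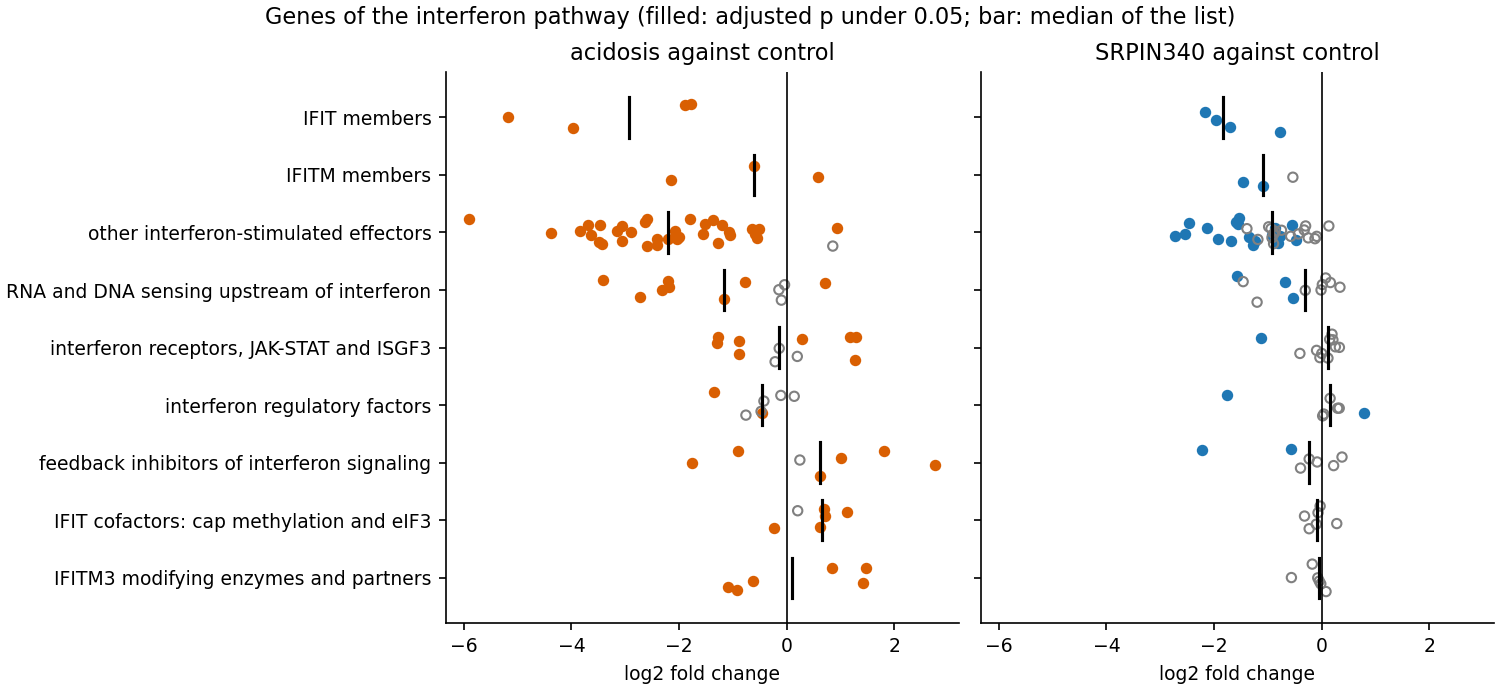
Log2 fold change of every tested gene of the IFIT and IFITM families and of the interferon pathway lists, in acidosis (left) and with SRPIN340 (right) against control, where filled points passed, open points did not and black bars are list medians. The other effectors lie mostly left of 0 in acidosis, with a median of -2.21, and the 2 lists of cofactors and partners hold no filled point with SRPIN340.

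The genes with the pattern most like IFIT1 over the 7 samples were PSMD1, a proteasome subunit, CCNB1, a cyclin of mitosis, and DTX3L, a ubiquitin ligase. They were taken from 11411 genes whose mean reached 5 CPM. Their Pearson correlations of log2 CPM with IFIT1 were 0.999, 0.997 and 0.997. The points share libraries and scaling and fall into 3 groups, and the correlation does not read the size of a change, since PSMD1 fell by 0.98 and CCNB1 by 0.67 on the log2 scale in acidosis. By the same measure IFIT5 was at 0.992, IFIT3 at 0.984, IFITM1 at 0.952 and IFIT2 at 0.838 with IFIT1, while IFITM3 was at 0.453 and IFITM2 at -0.65. Among the 11411 genes IFIT5 ranked 15, IFIT3 72, IFITM1 468 and IFIT2 3004, so that many other genes were as like IFIT1 as IFITM1 and IFIT2 were. The genes most like IFITM3 were PIGM, HNRNPAB and FADS2, at 0.972, 0.967 and 0.964. IFIT2 was at 0.850 with IFITM3 (rank 67), above IFITM1 at 0.656 (rank 310) and IFITM2 at 0.293 (rank 1558). Under TMM scaling, mean levels were lowest in acidosis for IFIT1, IFIT3, IFIT5 and IFITM1, lowest with SRPIN340 for IFITM2 and IFITM3, and about equal in both for IFIT2. SRPIN340 was no longer the lowest group for IFITM3 with total counts only, and IFITM2 did not pass against control with SRPIN340.

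The genes around the clusters were checked for a change shared with the members. Within 250 kb of the IFIT genes, 4 protein-coding neighbours were tested. In acidosis 2 of them were called lower, PANK1 (log2 fold change -2.36, adjusted p = 3.14e-06) and SLC16A12 (-1.41, adjusted p = 0.0172), beside 19.1% of all genes. SLC16A12 did not pass without the first or the second control sample (adjusted p = 0.0691 and 0.0596), which left PANK1 alone. LIPA, which overlaps 3 IFIT genes, passed as higher (0.33, adjusted p = 0.00871) and turned to -0.24 with total counts only, where it passed as lower (adjusted p = 0.0348), and it did not pass without the second control sample (0.24, adjusted p = 0.0975). Around the IFITM genes 16 neighbours were tested, and in acidosis 5 passed as lower and 3 as higher, beside 34.2% and 32.5% of all genes. These shares lay below those of all genes, and the share called, 3 of 16, lay near the 19.1% of all genes called lower. The 3 were BET1L (-1.62, adjusted p = 3.03e-05), SIRT3 (-1.72, adjusted p = 8.8e-06) and RASSF7 (-1.29, adjusted p = 0.0108), all lower. RASSF7 did not pass without the second control sample (adjusted p = 0.0774), and 6 neighbours were called lower with total counts only. That scaling also raised the number of all genes called lower in acidosis, from 2840 under TMM scaling to 5202. The 6 of 16 neighbours are therefore to be read beside those 5202 of 14863 genes tested, and not beside the 19.1%. With SRPIN340 none of the 20 neighbours passed edgeR's test, 3 had an unadjusted p under 0.05 and DESeq2 passed 1, where 6 of the 7 members passed by either tool.

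**Figure D5:**
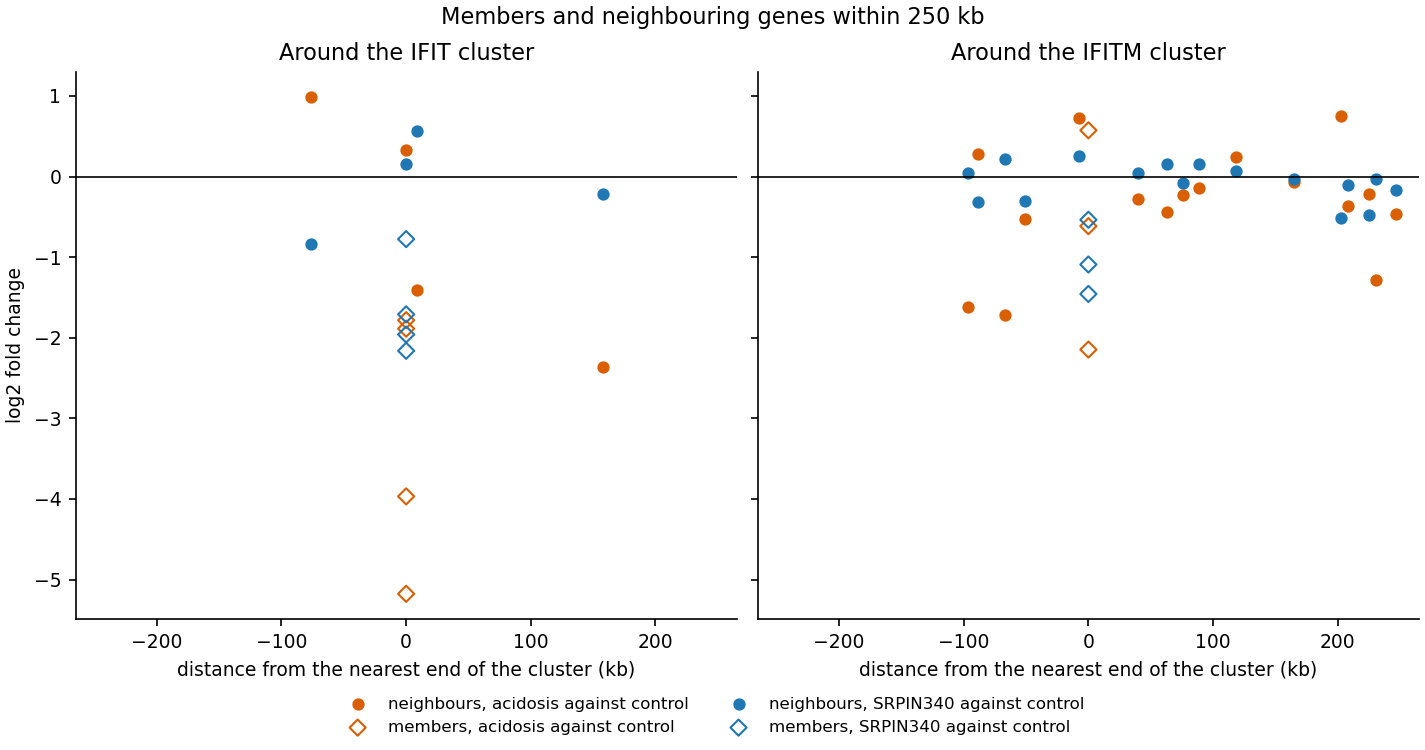
Log2 fold change of the members (diamonds, at 0 kb) and of tested protein-coding neighbours (points) against the distance from the nearest end of the IFIT cluster (left) or the IFITM cluster (right), in kb, for acidosis and SRPIN340 against control. The SRPIN340 points of the neighbours, none of which passed, scatter about 0, and in acidosis PANK1 at -2.36 is the lowest neighbour.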

How the data were processed

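Poly(A) RNA of 7 HEK-293 samples was sequenced as paired-end reads. The authors trimmed the reads (Trimmomatic 0.39, Trim Galore 0.6.6), quantified transcripts with Salmon 1.5.1 on a Gencode GRCh38.p13 transcriptome, and deposited estimated counts summed to genes with tximport, with no scaling between samples. Estimated counts need not be whole, and the tximport option and the strand setting are not given in the sources used here. Reads that fit several transcripts are shared out by Salmon, which bears on the IFITM genes.

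The estimated counts were rounded and tested in R 4.3.3 with edgeR 4.0.16 (TMM, filterByExpr, quasi-likelihood test), with all 7 samples in 1 fit. Benjamini-Hochberg adjustment ran over 14863 genes. Control and SRPIN340 had 2 samples each, so the spread was moderated across genes. The test was checked on simulated counts in which a small part of the genes changed, in both directions. That check does not bear on the scaling of the acidosis samples. CPM used TMM-scaled totals, and levels per kb used the length of the canonical transcript of GENCODE release 44. Identifiers matched that release for 19977 of 19978 genes. All replicate pairs differed by more than counting noise. The repeat numbers did not pair the samples (correlations of same-numbered deviations from -0.115 to 0.063), so no block was used.

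Alternatives were DESeq2 1.42.0, other scalings and filters, fits of the compared groups alone, a repeat block, the IFITM genes summed, no fold limit, and each sample left out. Genes were named by rule: all members, the 2 largest called changes per list and comparison, STAT2, IRF9 and IRF1, SRPK1 and SRPK2, the 3 genes most like IFIT1 and IFITM3, and called neighbours. LIPA, which overlaps 3 IFIT genes, was named although it was not called. The members, lists and rules were chosen with earlier results of these data known. A gene of the receptor list is not reported here. Promoters came from RefSeq (GRCh38.p14), coding identity from alignments with Biopython 1.88, exact tests from SciPy 1.17.1 in Python 3.11.15 and figures from matplotlib 3.10.9.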

Additional observations from a re-analysis of the deposited data

How the results depend on the processing

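The members' log2 fold changes were recomputed in 3 comparisons. Under settings that kept every sample, 155 values kept their direction and side of the threshold and 4 did not. These were IFITM2 in acidosis (-0.000434) and IFITM3 in acidosis against SRPIN340 (-0.139), which reversed with total counts only, IFIT2 in acidosis against SRPIN340, which then passed (-0.69), and IFIT5 with SRPIN340 under the repeat block (-0.78, adjusted p = 0.0804). With total counts only, SRPK1 (-0.52), SRPK2 (-0.026) and LIPA (-0.24) also turned in acidosis. SRPK1 (edgeR adjusted p = 6.17e-05) and LIPA (0.0348) then passed as lower, and SRPK2 did not pass (0.771). The total counts fit differed from the TMM fit in the scaling alone, which moved the median of all genes in acidosis from -0.05 to -0.63. With 1 sample left out, 135 values kept direction and side, IFIT2 in acidosis against SRPIN340 turned without passing (range -0.152 to 0.0156), and 11 no longer passed, 9 of them with SRPIN340, where a lone sample was assumed to vary like the other groups.

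Members called lower with SRPIN340 numbered 2 to 5 when a sample was left out, with 2 lacking the first SRPIN340 sample. Members called higher in acidosis went from 0 to 1 by adjusted p alone. In acidosis against SRPIN340 they went from 1 to 2 by adjusted p alone, to 0 with total counts only or with the IFITM genes summed, and ranged from 0 to 1 with a sample left out, with 0 lacking the second SRPIN340 sample. Members called lower in that comparison went from 3 to 4 with total counts only or by adjusted p alone, and to 2 without the second SRPIN340 sample.

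Over all genes, 2840 were called lower and 2145 higher in acidosis, and 5202 and 815 with total counts only. Against SRPIN340 the counts were 2935 and 2213, and 5505 and 775. With SRPIN340, 29 were lower and 19 higher. The higher calls were 33 with only the compared groups and 5 with the repeat block, and with a sample left out they ranged from 3 to 30, and the lower calls from 8 to 36. The block was fitted although the numbers did not pair the samples. The block changed the call of no member, since IFIT5 with SRPIN340, which no longer passed, had not been called. With it 5 members were called lower in acidosis and 5 with SRPIN340, as without it. By CPM instead of CPM per kb the order of the members changed, and by Spearman's rho the correlations of the genes most like IFIT1 and IFITM3 were 0.893 to 0.964. By rho 269 to 834 genes were at least as like IFIT1 as the 3 named, and 13 to 45 as like IFITM3, so that rho does not single them out. The acidosis samples had the fewest counts for IFIT1 (51.7 to 78.9 each), which limits its precision there.

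Values near 0 turned as well. In acidosis these were IRF1 under the repeat block (0.018) and SRPK1 with a mean of at least 6 CPM (-0.0024). With SRPIN340 they were IRF1 under the block (-0.015), IFNGR2 with DESeq2 (-0.0065), RLE size factors (-0.0065) and only the compared groups (-0.0022), and VAPA (0.022) and RASSF7 (0.0072) with total counts only. With a sample left out the ranges in acidosis were -0.31 to 0.094 for IRF1 and -0.036 to 0.12 for SRPK1. With SRPIN340 they were -0.48 to 0.39 for IRF1, -0.050 to 0.050 for IFNGR2, -0.95 to 0.24 for SOCS1, -0.0075 to 0.17 for SETD7, -0.060 to 0.024 for VAPA, -0.20 to 0.16 for RASSF7 and -0.76 to 0.25 for IFITM10.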

Other observations

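Further genes of both families were present in the table. IFIT1B, in the IFIT cluster, was at 0.180 and 0.0702 CPM in the control samples and listed at 0 in the other 5. IFITM5, next to IFITM2, was at 0.0351 CPM in 1 control sample and listed at 0 elsewhere. Neither had enough counts to be tested. IFITM10 was at 0.288 and 0.140 CPM in control, 0.147 and 0.190 CPM with SRPIN340, and 1.01, 1.19 and 0.258 CPM in acidosis, where the third sample lay near the control samples. Its log2 fold change in acidosis was 1.92 (edgeR adjusted p = 0.0425), and with total counts only 1.36 (adjusted p = 0.126). It did not pass either when any of the control or SRPIN340 samples was left out (adjusted p from 0.073 to 0.234).

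Among the receptors, IFNGR1, the other subunit of the interferon gamma receptor, was also higher in acidosis (log2 fold change 1.27, edgeR adjusted p = 1.19e-06). It was named after its values were seen. With total counts only, no gene of the receptor list was called higher in acidosis, where 815 of all 14863 genes tested were.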
